A study of Mus musculus with 6 samples.

Results

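Runx2, Sp7, Dlx3, Dlx5, Msx2 and Atf4, transcription factors that drive or tune osteoblast formation, were followed in an m6A RNA immunoprecipitation of neonatal marrow stroma. They were chosen by name, with earlier results of these data known. Each has a row in the deposited table, 6 of 27179 genes. Of the 6, 5 had counts and passed the filter on low counts, while Msx2 had 0 counts in all 6 libraries. Over the whole table, 14425 of the 27179 genes had counts and 11281 passed that filter. The RNA came from bone marrow mesenchymal stromal cells of C57BL/6 mice at postnatal day 2, sorted as positive for DsRed and negative for the blood, erythroid and endothelial markers CD45, Ter119 and CD31. All libraries share the genotype Cxcl12-dsred/+, a red reporter at 1 allele of the gene for the chemokine CXCL12, and the sort took cells in which that reporter was on. The groups were RNA eluted from beads with an antibody to N6-methyladenosine (anti-m6A, 2 libraries), RNA eluted from beads with IgG (IgG, 2 libraries) and RNA set aside before the pull-down (Input, 2 libraries). The labels do not say how many mice were pooled or whether the replicates came from separate mice or pull-downs, and every p-value therefore reflects library-to-library spread alone, possibly only technical.

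RUNX2 binds DNA with its partner CBFB and is required for cells to enter the osteoblast lineage, and SP7 (osterix) is a zinc finger factor that acts after it. DLX3, DLX5 and MSX2 are homeobox factors known to act on Runx2 and on genes of the bone matrix. ATF4 is a leucine zipper factor of the amino acid stress response that is also needed for late osteoblast function. N6-methyladenosine (m6A) is the most common internal modification of mRNA. It is written mostly within a short sequence of which GGACT (with U for T in the RNA) is a well-known form, and it is known to be enriched around the stop codon.

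The sites shown here are the GGACT matches nearest to the stop codon in 1 annotated transcript per gene, because that is where the antibody's target could be looked for by sequence. The motif is in capitals, the letters run 5′ to 3′ on the sense strand, and the sequences and positions are from GENCODE M21 on GRCm38, the assembly that mm10 names.
Runx2 (chr17:44607604-44607632, minus strand, 3′ UTR): gttcagagaggtGGACTctgggtctggga
Sp7 (chr15:102357173-102357201, minus strand, 3′ UTR): ctatggcggggaGGACTggaatgtacccc
Dlx3 (chr11:95124449-95124477, plus strand, 3′ UTR): cttccatgtacaGGACTttgcacaagtct
Dlx5 (chr6:6878114-6878142, minus strand, 3′ UTR): tgctcagttttgGGACTacagtgttgtgc
Msx2 (chr13:53468200-53468228, minus strand, coding): atcccgcctgttGGACTctatgccacgcc
Atf4 (chr15:80256328-80256356, plus strand, coding): agtgttggcgggGGACTtgatgtccccct

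The Dlx5 transcript held 3 matches, or 2.11 per kb, a density above that of 89.6% of the 20749 protein-coding genes scanned on the sense strand, whose median was 1.02 per kb. Runx2 held 4 matches (0.678 per kb), Sp7 and Dlx3 3 each (0.969 and 1.15 per kb), Msx2 2 (0.815 per kb) and Atf4 1 (0.58 per kb). Within 200 bases on either side of the stop codon, Dlx5 and Msx2 had 1 match each and the other members none. For Atf4 that window was incomplete, because its 3′ UTR has 81 bases. A full window held a match in 38.5% of the 17101 genes whose transcript reached 200 bases to either side. Reads were summed per gene and the labels state no fragmentation, so the counts place no methylated base at any of these letters.

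**Figure D1:**
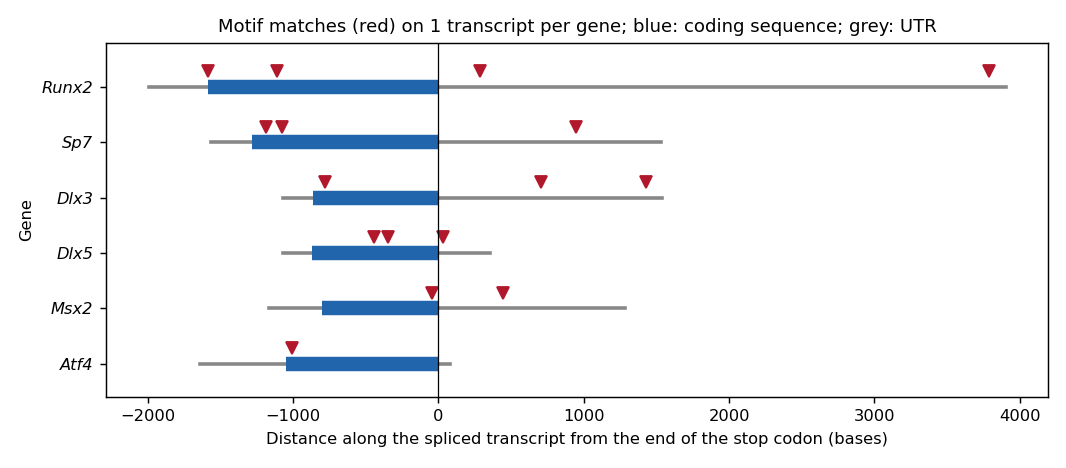
Matches to the 5-base motif (red triangles) along 1 spliced transcript per gene, with the coding sequence in blue and UTRs in grey; the x axis is the distance in bases from the end of the stop codon. The Dlx5 and Msx2 matches lie closest to the stop codon, and the single Atf4 match lies near the start of its coding sequence.

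The libraries differed in depth and content in ways that touch every comparison. Total counts were 6102070 and 5133237 in anti-m6A, 2487148 and 1278735 in IgG, and 7125578 and 9493391 in Input. IgG libraries held 3266 and 2723 detected genes, against 10024 to 12714 in the other libraries. The 10 marrow stroma markers listed, Cxcl12 among them, had counts in every anti-m6A and Input library, and 6 and 5 of them had counts in the IgG libraries. A list of 12 hepatocyte markers took 0.0914% and 0.0953% of counts in anti-m6A, 2.5% and 2.68% in IgG, and 0.0166% and 0.217% in Input. Of the 12, 7 had counts in each anti-m6A library, 10 in each IgG library, and 7 and 10 in the Input libraries. In this list Agxt was at 0 in anti-m6A and Input, Gnmt was at 0 in anti-m6A, and Cps1 was at 0 in every library. Ambp went the other way, with 130 and 136 counts in anti-m6A, 0 and 0 in IgG, and 0 and 794 in Input. A list of 12 neutrophil and erythroid genes took 0.0915% and 0.103% in anti-m6A, 0.695% and 0.68% in IgG, and 0.0684% and 0.0934% in Input, with Elane at 0 in every library and Mpo at 0 outside IgG. In that list Ltf had counts in Input alone (329 and 196). Of 7 osteoclast markers, which took at most 0.0932% of a library, Mmp9 gave 1373 and 1102 counts in anti-m6A, 54 and 7 in IgG, and 4772 and 7197 in Input. Ctsk had 301 and 260, 0 and 0, and 901 and 1647 in the same order, Acp5 had 14 and 12 in anti-m6A alone, and Ocstamp, Dcstamp, Oscar and Calcr were at 0 throughout. Of 7 chondrocyte markers, which took at most 0.00429%, Sox9 gave 96 and 63 counts in anti-m6A, 0 and 0 in IgG, and 161 and 193 in Input, and Col2a1 had 134 and 99, 0 and 0, and 1 and 214. Col10a1 had 1 and 3 in anti-m6A alone, and Acan, Col9a1, Matn1 and Hapln1 were at 0 throughout. Endothelial markers took 0.015% and 0.0148% in anti-m6A, 0% in both IgG libraries, and 0.0195% and 0.0256% in Input. The part of these transcripts in the results below was not tested.

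Per length, Dlx5 was the most abundant of the 6 in anti-m6A and Input, and Runx2 in IgG. In anti-m6A, levels in CPM (counts per 1000000 counts of library, with TMM normalisation) per kb of exon were 76.2 ± 11.4 for Dlx5, 23.2 ± 2.41 for Atf4, 14.2 ± 0.463 for Runx2, 2.07 ± 0.427 for Sp7 and 0.978 ± 0.258 for Dlx3 (SD, n = 2). In IgG, Runx2 stood at 34.5 ± 8.3 and Dlx5 at 0.0854 ± 0.121 CPM per kb, with the other 4 at 0 counts. In Input the levels were 45.0 ± 12.4 for Dlx5, 26.6 ± 5.93 for Atf4, 17.7 ± 2.58 for Runx2, 7.55 ± 1.59 for Sp7 and 0.559 ± 0.686 for Dlx3 (SD, n = 2). The order of the 5 genes was thus the same in anti-m6A and Input, and the libraries of neighbouring genes in that order did not overlap in either group. In bulk RNA, fewer cells of a type and less RNA per cell cannot be told apart. For Msx2 the CPM limit that 3 counts set was 0.622 and 0.756 for anti-m6A, 1.16 and 1.94 for IgG, and 0.355 and 0.291 for Input, so its transcript was not detectable at this depth. Such limits and the intervals given later allow for counting error alone. Without molecular identifiers, PCR copies of a molecule cannot be told with certainty from separate molecules, and may have been counted.

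**Figure D2:**
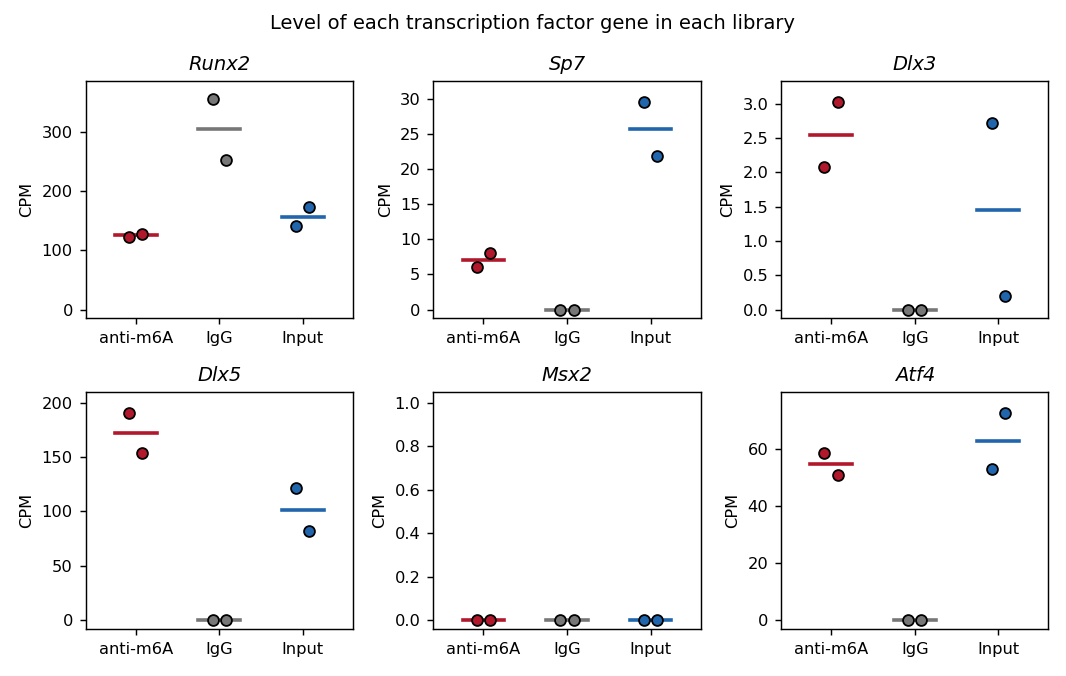
CPM of each member gene in each library (points) with the group mean (line), for anti-m6A, IgG and Input with 2 libraries each; each panel has its own linear axis. Runx2 is highest in IgG, Sp7 is highest in Input, Sp7, Dlx3, Dlx5 and Atf4 are at or near 0 in IgG, and Msx2 is at 0 in every library.

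Runx2 (Entrez 12393, chromosome 17, 44495987 to 44814797, minus strand) was the 1 member that the IgG beads carried in quantity. Its counts were 592 and 510 in anti-m6A, 922 and 390 in IgG, and 1187 and 1781 in Input. On the CPM scale it stood at 123 and 129 in anti-m6A, 357 and 253 in IgG, and 141 and 173 in Input. Both IgG libraries lay above all other libraries, and the anti-m6A libraries lay below both Input libraries. Its rank among the 11281 genes tested was at the 82.9 and 83.8 percentile in anti-m6A, 92.7 and 92.2 in IgG, and 86.5 and 88.6 in Input. At least 10 counts in each IgG library were seen for 18.4% of genes tested, and 0 counts in both for 73.4%.

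Relative to IgG, Runx2 had a log2 change of -1.28 ± 0.27 in anti-m6A and was called lower (SE, 2 libraries a group; edgeR quasi-likelihood test, Benjamini-Hochberg adjusted p = 0.0068). Leaving out anti-m6A replicate 1 or 2 ended the call (edgeR adjusted p = 0.0771 and 0.0715), with log2 changes of -1.24 and -1.30. In every such fit the spread comes from the other groups, and the lone library is assumed to vary as they do. Relative to Input, anti-m6A stood at -0.32 ± 0.26 (SE; edgeR adjusted p = 0.363) and was not called. It was called lower at -0.75 with DESeq2's size factors (edgeR adjusted p = 0.0297), at -0.86 with library totals alone (0.0216) and at -0.88 when every library had to hold 10 counts or more (0.0151). DESeq2's own test also called it lower, at -0.75 (adjusted p = 2.86e-06). IgG against Input gave 0.96 ± 0.26 (SE; edgeR adjusted p = 0.0209), a higher call that did not hold with DESeq2's size factors (0.46, edgeR adjusted p = 0.0927), in a fit of the 4 libraries compared (0.53, 0.24), and when every library had to hold 10 counts or more (0.049, 0.852). It was also lost without IgG replicate 1 (0.63, edgeR adjusted p = 0.109), without anti-m6A replicate 1 (0.0737) and without anti-m6A replicate 2 (0.1). These comparisons share libraries in pairs and are not independent. The exons of Runx2 share 519 bases with the antisense gene Runx2os1 in GENCODE M21, and without strand in the libraries the reads of the pair cannot be told apart.

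Sp7 (Entrez 170574, chromosome 15, 102356606 to 102367182, minus strand) took a smaller share in the m6A eluate than in the RNA put into it. Its counts were 29 and 32 in anti-m6A, 0 and 0 in IgG, and 249 and 225 in Input. Those counts correspond to 6.01 and 8.07 CPM in anti-m6A, against 29.5 and 21.8 CPM in Input, and the groups did not overlap. Sp7 was lower in anti-m6A than in Input, with a log2 change of -1.86 ± 0.48 (SE, 2 libraries a group; edgeR adjusted p = 0.0363). The call was lost without anti-m6A replicate 1 (-1.65, edgeR adjusted p = 0.502) and without anti-m6A replicate 2 (-2.14, 0.434). Relative to the IgG floor of 3 counts per library, Sp7 was at least 4.54-fold higher in anti-m6A (edgeR adjusted p = 0.00235). IgG was at least 16.5-fold lower than Input (edgeR adjusted p = 0.00119).

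Dlx5 (Entrez 13395, chromosome 6, 6877805 to 6882085, minus strand) was abundant with the m6A antibody and nearly absent with IgG. Its counts were 919 and 611 in anti-m6A, 1 and 0 in IgG, and 1027 and 845 in Input. On the CPM scale these were 191 and 154 in anti-m6A and 122 and 82.0 in Input, and each anti-m6A library lay above each Input library. Dlx5 was higher in anti-m6A than in IgG by a ratio of 719 in summed scaled counts (exact 95% counting interval 129 to 28410; edgeR adjusted p = 0.000586), the IgG value resting on 1 read. Relative to Input, its log2 change was 0.76 ± 0.40 (SE, 2 libraries a group; edgeR adjusted p = 0.174), not called. Without Input replicate 1 it was 1.09 and called (edgeR adjusted p = 0.0225), as it was at 0.87 in a fit of the 4 libraries compared (0.0466), while DESeq2's size factors gave 0.30 (0.557). IgG was lower than Input, with a ratio of 0.00243 (exact 95% counting interval 6.14e-05 to 0.0135; edgeR adjusted p = 0.000556).

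Dlx3 (Entrez 13393, chromosome 11, 95120119 to 95125296, plus strand) was near the limit of detection. Its counts were 10 and 12 in anti-m6A, 0 and 0 in IgG, and 23 and 2 in Input, so the Input libraries differed 14.0-fold in CPM. Its anti-m6A libraries, at 2.07 and 3.03 CPM, lay within or just above the Input values of 2.72 and 0.194 CPM. The log2 change of anti-m6A against Input was 0.81 ± 1.17 (SE, 2 libraries a group; edgeR adjusted p = 0.612), and it turned to -0.11 without Input replicate 2 and to 3.55 without Input replicate 1 (edgeR adjusted p = 0.869 and 0.0204). Against the IgG floor it was at least 1.64-fold higher, which did not pass the test (edgeR adjusted p = 0.0806). It was called higher than IgG by DESeq2's own test (adjusted p = 0.0471), without Input replicate 1 (edgeR adjusted p = 0.0153) and without Input replicate 2 (0.0121). IgG against Input was not called (edgeR adjusted p = 0.138), but it was without Input replicate 2 (0.0142). No fold is given there, since the Input mean lies under the IgG floor.

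Atf4 (Entrez 11911, chromosome 15, 80255184 to 80257541, plus strand) was recovered with the m6A antibody and was absent from the IgG counts. Its counts were 283 and 201 in anti-m6A, 0 and 0 in IgG, and 446 and 748 in Input. The anti-m6A libraries stood at 58.7 and 50.7 CPM and the Input libraries at 52.8 and 72.6 CPM, and the groups overlapped. The log2 change of anti-m6A against Input was -0.20 ± 0.33 (SE, 2 libraries a group; edgeR adjusted p = 0.669). It ranged from -0.73 with library totals to 0.046 without Input replicate 2, and none of its alternatives passed 0.05. Against the IgG floor Atf4 was at least 35.2-fold higher in anti-m6A (edgeR adjusted p = 0.000742), and IgG was at least 40.4-fold lower than Input (0.000658).

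**Figure D3:**
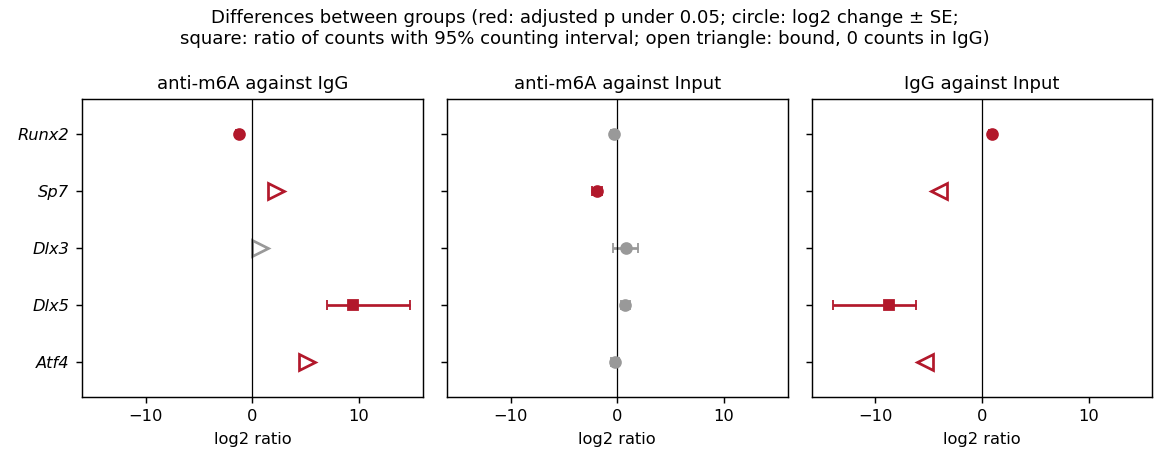
Differences in the 5 tested members on a log2 scale, first group named over the second: circles are edgeR log2 changes with their SE, squares (Dlx5 against IgG, and IgG against Input) are ratios of counts with exact 95% counting intervals, and open triangles are bounds for genes at 0 counts in IgG. Red marks an adjusted p under 0.05: in anti-m6A against Input that is Sp7 alone, and Runx2 is the only member on the low side of 0 against IgG.

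Counted together, 4 of the 5 tested members were called between anti-m6A and IgG, beside 81.4% of all genes tested. Of these 3 were higher and 1 was lower, beside 73.1% and 8.31%. Their median log2 change was 2.18 with genes at 0 set to their bound, beside 2.88 over all genes tested. Against Input 1 was called, beside 48.4%, with 0 higher and 1 lower, beside 28% and 20.5% of all genes. Over all genes those calls split into 3156 higher and 2308 lower with TMM, 2711 and 2982 with DESeq2's size factors, and 2609 and 3127 with library totals. For the members, with an unadjusted p under 0.05 the counts were again 0 and 1, and DESeq2's own test called 0 and 2. The median was -0.20 for the members and 0.18 for all genes. Between IgG and Input 4 were called, beside 71.4%, with 1 higher and 3 lower, beside 9.89% and 61.5%. With 5 genes these counts do not set the members apart from all genes tested. Runx2 was the member on the less common side in both comparisons with IgG.

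**Figure D4:**
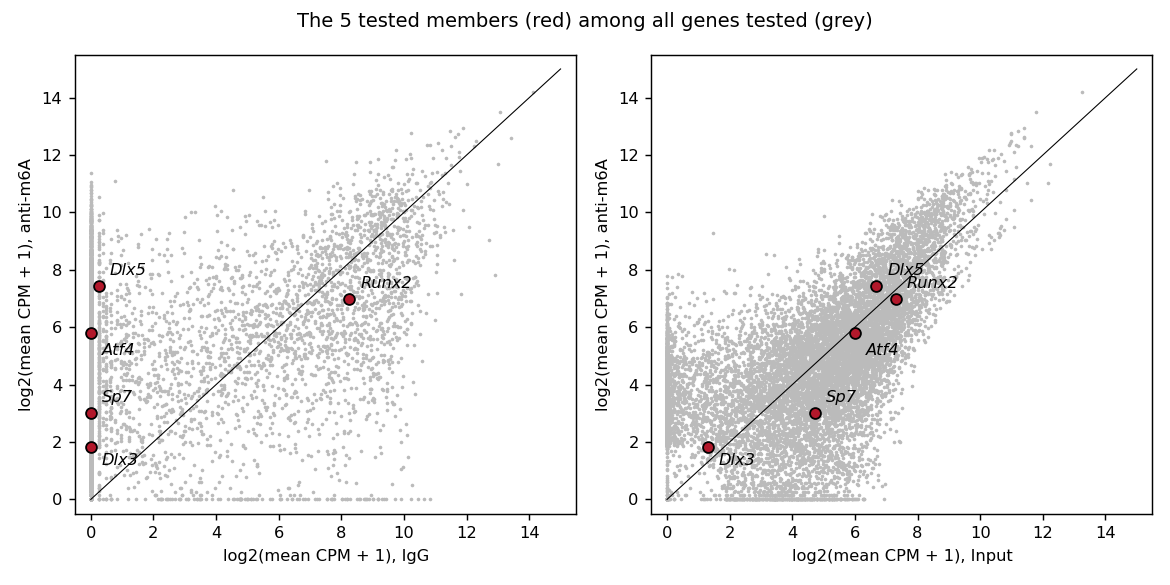
Mean level of each of the 11281 genes tested (grey) in anti-m6A against IgG (left) and against Input (right), as log2 of mean CPM plus 1, with the 5 tested members in red and the line of equality. In the left panel Runx2 lies below the line and the other members lie at or near the zero edge of IgG; in the right panel Sp7 lies farthest below the line.

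The lists of related genes below are read beside the shares of all genes tested. In anti-m6A against IgG 73.1% were higher and 8.31% lower, against Input 28% and 20.5%, and in IgG against Input 9.89% and 61.5%. List medians of the log2 change against Input were -0.10 for the RUNX genes, -1.28 for the other DLX and MSX genes, -0.17 for the lineage factors, -0.57 for the restraining factors, -0.86 for the matrix genes, -0.55 for the upstream parts of the ATF4 pathway and -0.93 for ATF4 targets. The median over all genes tested was 0.18, above each of these 7 lists. Against IgG, with genes at 0 at their bound, the medians were 4.66, 2.83, 2.75, 4.26, 1.44, 4.25 and 0.84 in that order, beside 2.88 over all genes. In IgG against Input, treated likewise, they were -3.92, -3.97, -3.26, -4.65, -2.31, -4.41 and -3.82, beside -2.87.

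Cbfb, Runx1 and Runx3, which RUNX2 pairs with or resembles, had 0 counts in both IgG libraries. Cbfb, the partner subunit that RUNX proteins need to bind DNA, gave 188 and 157 counts in anti-m6A, 0 and 0 in IgG, and 0 and 0 in Input. It was at least 25.3-fold above the IgG floor and at least 122-fold above the Input floor (edgeR adjusted p = 0.00273 and 0.00716). The second call was lost without anti-m6A replicate 1 (edgeR adjusted p = 0.0548). Cbfb passed the filter on low counts through its anti-m6A libraries alone, which favoured a higher call in advance. Runx1, the blood-forming paralog, gave 530 and 397 counts in anti-m6A, 0 and 0 in IgG, and 1454 and 1686 in Input. Runx3 had 127 and 70, 0 and 0, and 194 and 248 in the same order. All 3 were called higher in anti-m6A against IgG, and 1 of 3, Cbfb, against Input. In IgG against Input, Runx1 was at least 108-fold lower and Runx3 at least 15.1-fold lower.

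Among the other DLX and MSX homeobox genes, Dlx1, Dlx2 and Msx3 were at 0 in every library, and the 3 tested were Dlx4, Dlx6 and Msx1. All 3 were called higher in anti-m6A against IgG, by at least 7.37-fold for Dlx4 and 7.12-fold for Msx1. Dlx6, the neighbour of Dlx5 on chromosome 6, gave 6 and 5 counts in anti-m6A, 0 and 0 in IgG, and 90 and 79 in Input. Its call against IgG (edgeR adjusted p = 0.00715) carries no fold, because its anti-m6A level of 1.25 CPM lies under the IgG floor, and the call was lost without IgG replicate 1 (0.0791) and without anti-m6A replicate 1 (0.106) or 2 (0.112). Dlx6 was lower in anti-m6A than in Input, at a log2 change of -2.85 ± 0.46 (SE, 2 libraries a group; edgeR adjusted p = 0.0114), whereas Dlx4 (-1.09 ± 0.49) and Msx1 (-1.28 ± 0.48) were not called. Dlx6 passed the filter on low counts through its Input libraries alone, which favoured a lower call in advance. Of the 3 tested, 3 were lower in IgG than in Input, by at least 15.7-fold for Dlx4, 5.9-fold for Dlx6 and 17.4-fold for Msx1.

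A wider list of 20 transcription factors of the osteoblast lineage had 15 tested members, of which 12 were higher and none lower in anti-m6A than in IgG, beside 73.1% and 8.31% of all genes tested. Fosl1 and Alx4 were at 0 in every library. Cebpb, a C/EBP factor that works with ATF4 and RUNX2, had 4810 and 3628 counts with the m6A antibody and 1 and 0 with IgG, a ratio of 3965 (exact 95% counting interval 711 to 156600). Smad5, a BMP signal transducer, was at least 50.4-fold higher, and Xbp1, a stress-response factor, at least 44.7-fold higher. Against Input 6 of 15 were higher and 4 were lower, beside 28% and 20.5%. Creb3l1 (OASIS, a regulator of Col1a1) had 24 and 32 counts with the m6A antibody and 0 in the other 4 libraries, at least 20.2-fold above the Input floor. Lef1, a WNT effector, was at 0 in both Input libraries too and was at least 18.8-fold higher. Creb3l1 and Lef1, like Cbfb, passed the filter on low counts through their anti-m6A libraries alone, which favoured such calls in advance. Smad5 was higher by a log2 change of 3.86 ± 0.56 (SE). Wwtr1 (TAZ, a coactivator of RUNX2) fell by 3.09 ± 0.44, and Fosl2, an AP-1 subunit, was lower with 3 counts in anti-m6A and 351 in Input, a ratio of 0.0182 (exact 95% counting interval 0.00374 to 0.0538). Fosl2 passed the filter on low counts through its Input libraries alone, which favoured a lower call in advance. Of the 15, 11 were lower in IgG than in Input and none was higher, beside 61.5% and 9.89%, among them Xbp1 (at least 87.6-fold) and Wwtr1 (77.2-fold).

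**Figure D5:**
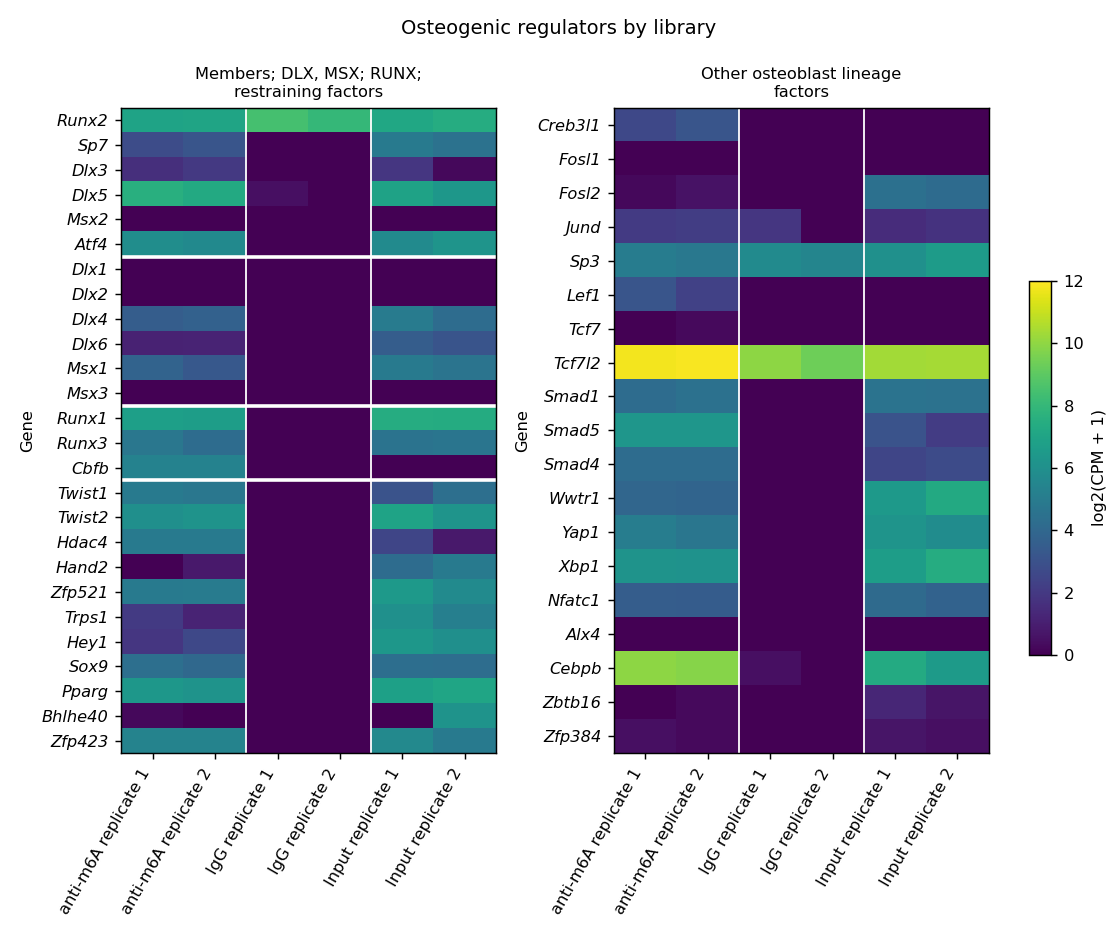
Level of listed regulators in each library as log2(CPM + 1), with libraries in columns (anti-m6A, IgG, Input) and genes in rows; white lines part the lists. Runx2, Sp3 and Tcf7l2 are the rows with signal in both IgG libraries, and Cbfb, Creb3l1 and Lef1 have signal in both anti-m6A libraries and in no other.

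Of the factors known to restrain RUNX2 or osteoblast differentiation, 11 were tested. In anti-m6A against IgG 10 were called higher, beside 73.1% of all genes tested, with Pparg (the adipocyte master factor) at least 49.5-fold, Twist2 42.8-fold, Zfp423 25.9-fold and Twist1, a direct inhibitor of RUNX2, 18.1-fold higher. Against Input 1 was higher and 3 were lower, beside 28% and 20.5%. Hand2 had 3 counts in anti-m6A and 445 in Input (ratio 0.0144, exact 95% counting interval 0.00296 to 0.0423), Trps1 fell by 4.49 ± 0.74 and Hey1 by 4.22 ± 0.54 (SE, n = 2 per group). Hand2 and Trps1 needed their Input libraries to pass the filter on low counts, which favoured lower calls in advance. Twist1 was not called (1.04 ± 0.64). All 11 were lower in IgG than in Input, beside 61.5% of all genes, with Pparg at least 79.1-fold, Twist2 63.6-fold, Hey1 46.4-fold and Twist1 8.77-fold lower.

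Of 17 genes of the bone matrix, on which these factors are known to act, 9 had counts in each IgG library, Mepe and Phospho1 were at 0 in every library, and Omd had counts (2 and 3) in anti-m6A alone. Of 13 tested, 9 were higher and 1 was lower in anti-m6A than in IgG, beside 73.1% and 8.31% of all genes. Ifitm5 (an osteoblast membrane protein) was at least 241-fold higher, Panx3 2.71-fold and Dmp1 1.45-fold higher, while Ibsp (bone sialoprotein) and Alpl (alkaline phosphatase) rose by log2 changes of 1.95 ± 0.27 and 1.45 ± 0.36 (SE). Col1a1, the main collagen of bone, fell by 1.78 ± 0.30, with a mean of 420 ± 14.2 CPM for anti-m6A and 1446 ± 40.9 for IgG (SD, n = 2). Bglap (osteocalcin), with 336 ± 11.2 CPM for anti-m6A and 322 ± 74.0 for IgG, was not called. Bglap2, a related gene on the list, differed, with 197 ± 0.755 CPM for anti-m6A and 22.6 ± 16.6 for IgG. It was called higher in anti-m6A (log2 change 3.14 ± 0.64, SE; edgeR adjusted p = 0.00623). Relative to Input, Bglap2 was called neither in anti-m6A (1.54 ± 0.59) nor in IgG (-1.61 ± 0.605). Because the aligner is not stated, how any reads that fit both Bglap and Bglap2 were assigned is not known. The Alpl and Dmp1 calls were lost without either anti-m6A library, and the Dmp1 call also without either IgG library (edgeR adjusted p = 0.0621 to 0.108 over these fits).

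Against Input, 3 of the 13 matrix genes were higher and 3 were lower, beside 28% and 20.5% of all genes. Bglap was higher by a log2 change of 2.70 ± 0.38, Sparc (osteonectin) by 1.52 ± 0.22 and Spp1 (osteopontin) by 0.95 ± 0.14, while Panx3 fell by 5.21 ± 0.46, Col1a2 by 1.58 ± 0.21 and Col1a1 by 1.34 ± 0.29 (SE, n = 2 per group). Col1a1 was not called in the fit of the 4 libraries compared (edgeR adjusted p = 0.0668). The Spp1 call did not hold with DESeq2's size factors (0.51, edgeR adjusted p = 0.0836) or with library totals (0.41, 0.0825). Ibsp (0.45 ± 0.26) and Alpl (-0.86 ± 0.34) were not called. In IgG against Input 2 of 13 were higher, namely Bglap (2.64 ± 0.38) and Spp1 (0.89 ± 0.14), and 8 were lower, beside 9.89% and 61.5% of all genes, with Ifitm5 at least 228-fold, Panx3 101-fold and Smpd3 24.6-fold lower. Ibsp and Alpl were lower too, with log2 changes of -1.50 ± 0.27 and -2.31 ± 0.36. The Spp1 difference from Input fell to 0.44 with DESeq2's size factors (edgeR adjusted p = 0.101), and Smpd3 was not called without IgG replicate 1 or 2 (0.136 and 0.114).

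The pathway around ATF4 was described from a list of its upstream kinases and phosphatase parts and a list of its target genes. Of the upstream genes Eif2ak3 (PERK) and Rps6ka3 (RSK2, which phosphorylates ATF4 in osteoblasts) were at 0 in every library, and 5 of 8 were tested. All 5 were called higher in anti-m6A against IgG, beside 73.1% of all genes tested, with Ppp1r15a (GADD34) at least 48.3-fold, Eif2s1 (eIF2 alpha) 25.4-fold and Ppp1r15b 19.1-fold higher. Against Input 2 of 5 were higher and 1 was lower, beside 28% and 20.5%. Ppp1r15b rose by 5.90 ± 0.57 and Ppp1r15a by 1.36 ± 0.32, and Eif2ak2 (PKR) fell by 2.17 ± 0.60 (log2 with SE, 2 libraries a group). Ppp1r15a was not called with DESeq2's size factors (0.93, edgeR adjusted p = 0.0876) or library totals (0.82, 0.117), and Eif2ak2 was not in the fit of the 4 libraries compared (0.0551) or with no count filter (0.05). In IgG against Input 4 of 5 were lower, beside 61.5%, with Eif2s1 at least 45.1-fold, Eif2ak2 25.9-fold and Eif2ak1 21.2-fold lower.

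Of 20 ATF4 targets, Trib3 and Chac1 were at 0 in every library and 17 were tested. In anti-m6A 9 were higher than in IgG and none was lower, beside 73.1% and 8.31% of all genes, with Ddit3 (CHOP) at least 112-fold, Phgdh (serine synthesis) 13.6-fold and Aldh18a1 (proline synthesis) 10.7-fold higher. Against Input 3 rose and 7 fell, beside 28% and 20.5%. Atf3 was at least 11.9-fold above the Input floor, Nupr1 rose by 2.49 ± 0.21, and Psat1 had 33 counts in anti-m6A and 1 in Input (ratio 70.4, exact 95% counting interval 11.8 to 2865). Atf3 and Psat1 passed the filter on low counts through their anti-m6A libraries alone, which favoured such calls in advance. Slc7a5 (an amino acid transporter) was at 0 in anti-m6A and at least 33-fold lower than in Input. Mthfd2 had 1 count in anti-m6A and 584 in Input (ratio 0.00365, exact 95% counting interval 9.24e-05 to 0.0204), and Vldlr fell by 6.67 ± 1.05. Slc7a5, Mthfd2 and Vldlr passed that filter through their Input libraries alone, which favoured lower calls in advance. Ddit3 (1.43 ± 0.49) and Asns (-0.29 ± 1.87), asparagine synthetase, were not called. Asns gave 22 and 10 counts in anti-m6A, 0 and 0 in IgG, and 0 and 89 in Input, so it was 6.95 and called without Input replicate 2 (edgeR adjusted p = 0.00806). In IgG 10 of 17 were lower than in Input and none was higher, beside 61.5% and 9.89%, with Aldh18a1 at least 42.9-fold, Ddit3 41.5-fold and Vldlr 38.8-fold lower.

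Most calls against Input in these 7 lists did not hold with 1 anti-m6A library. Of the 27 list genes that the naming rule took and that were called in that comparison, 5 were still called without anti-m6A replicate 1, namely Bglap, Sparc, Spp1, Panx3 and Nupr1. Without anti-m6A replicate 2, 7 of the 26 that could be tested were called, those 5 with Cbfb and Col1a2. The sizes of lost calls could stay near those with both libraries. Smad5 stood at 3.87 and 3.81 (log2) without anti-m6A replicate 1 and 2, against 3.86 with both, and Wwtr1 at -3.12 and -3.08, against -3.09.

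The genes whose pattern over the 6 libraries was most like each member, by the root mean square distance of centred log2(CPM + 1) values, were found among all genes tested. For Runx2 they were Tfcp2, Rack1 and Hmgb1 at distances of 0.13 to 0.158. Tfcp2 stood at 50.6 CPM in anti-m6A, 128 in IgG and 58.1 in Input. For Sp7 they were Abraxas2, Tfdp2 and Asxl1 (0.067 to 0.109), for Dlx3 Gmeb2, Ank2 and Kmt5b (0.106 to 0.215), for Dlx5 Fkbp8, Smc3 and Exosc7 (0.155 to 0.166), and for Atf4 Thbd, Strap and Adcy6 (0.089 to 0.107).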

How the data were processed

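Raw counts per Entrez gene were deposited by the authors as a single table, whose 6 columns were matched to the libraries by title. Libraries followed Smart-seq2 from poly(A) RNA, per the labels' protocols, without molecular identifiers or strand. Picard, featureCounts, edgeR 3.38.1 and mm10 are listed, per the submitters' processing notes. Neither aligner nor annotation is stated in the sources used here. Gene numbers were matched to symbols in RefSeq's GRCm38.p6 table (25275 of 27179). The software was R 4.3.3, edgeR 4.0.16, limma 3.58.1 and DESeq2 1.42.0. Genes passing filterByExpr (minimum count 10, minimum total 15) were scaled by TMM, and all 6 libraries entered 1 quasi-likelihood fit with a mean per group (3 residual degrees of freedom). A gene can pass through a single group, which favours in advance a call with that group higher. Benjamini-Hochberg adjustment covered all 11281 tested genes, and calls were made under 0.05. An SE is the log2 change divided by the square root of F. A gene at 0 in a group is given as a bound against 3 counts per library. Exact counting intervals are binomial at 95%. Exon lengths, coordinates and transcripts came from GENCODE M21. For motif counts, each gene gave its longest coding transcript with both UTRs.

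The members and lists were chosen with earlier results of these data known. Named genes were the members, the called list genes with the 3 largest changes in each direction per list and comparison, genes fixed by name (Cbfb, Dlx6, Twist1, Creb3l1, Asns, Ddit3, Trib3, Bglap, Ibsp, Alpl, Col1a1), and the 3 genes most like each member. Cell type markers are given as sums. Names outside this rule include the markers given singly, Bglap2 and some genes under the other observations. Some genes this rule took are not reported here by name, and the counts over lists include them. Alternatives were DESeq2's size factors, library totals, no count filter, at least 10 counts in each library, DESeq2's test, the 4 libraries compared, the replicate number as a block, and leaving out each library.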

Additional observations from a re-analysis of the deposited data

How the results depend on the processing

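In anti-m6A against Input the count of genes called was 5464, 3364 under the replicate block, and it ranged from 442 to 8691 when 1 library was left out, the lowest without anti-m6A replicate 1 (370 higher and 72 lower) and replicate 2 (501 in all), the highest without Input replicate 1 (8691) and replicate 2 (8624). There the median over all genes shifted by -0.40 (log2) with DESeq2's size factors and by -0.51 with library totals, and the share of higher genes among the calls was 47.6% and 45.5%, against 57.8% with TMM. In the other comparisons the shifts were -0.22 and -0.36 (anti-m6A against IgG) and -0.25 and -0.18 (IgG against Input). Members called in anti-m6A against Input numbered 1, against 2 with DESeq2's size factors, with library totals, with DESeq2's test and in the fit of the 4 libraries compared, 0 under the replicate block (Sp7 at -1.86, edgeR adjusted p = 0.129), and 0 to 3 with 1 library left out. With at least 10 counts in each library Runx2 was the 1 member tested, called against IgG (1 member) and not in IgG against Input (0 members). The ranges with 1 library left out were 3 to 5 members against IgG and 3 to 5 in IgG against Input. That filter leaves fewer genes to test, and 1179 were called against IgG (50.3% higher, main 89.8% of 9187), 928 in anti-m6A against Input (44.2% higher) and 1051 in IgG against Input (45.7% higher, main 13.9% of 8057). Replicate numbers were not stated to pair the libraries: deviations of same-numbered libraries from their group means correlated at 0.127, 0.102 and 0.0456 over the 3 pairs of groups. Under the block, beside Sp7, 20 of 27 named list genes were still called against Input, 27 of 27 against IgG and 24 of 25 in IgG against Input. Those not called under the block were Dlx6, Creb3l1, Lef1, Ppp1r15a, Eif2ak2, Atf3 and Psat1 against Input (edgeR adjusted p = 0.0513 to 0.109) and Smpd3 in IgG against Input (0.0573). Values that changed sign, none called in its main test, were Bglap against IgG (-0.45 with library totals, -0.17 to 0.33 with 1 library left out), Ibsp against Input (-0.083 with library totals, -0.11 with at least 10 counts in each library), Col1a1 in IgG against Input (-0.012 with DESeq2's size factors and -0.012 with DESeq2's test, -0.44 with at least 10 counts in each library) and, in anti-m6A against Input, Asns (1.43 with the block, 0.059 without anti-m6A replicate 2, and -1.24 to 6.95 over all libraries left out, the highest without Input replicate 2), Dlx3 (-0.11 to 3.55) and Atf4 (-0.39 to 0.046), whose signs changed without Input replicate 2. Other scalings moved member levels to between 0.782 (anti-m6A, library totals) and 1.25 (Input, DESeq2's size factors) of their TMM value. The causes were not tested. Counts were low for Dlx3, with 2 to 23 in anti-m6A and Input libraries, for Msx2, with 0 in all, and for every member but Runx2 in IgG.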

Other observations

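Some genes differed widely between the Input libraries, and were picked here after their values were seen. Ifitm5 had 548 counts in Input replicate 1 and 6640 in replicate 2, Smpd3 (a sphingomyelinase needed for mineralisation) had 13 and 773, Dmp1 (an osteocyte matrix protein) had 28 and 155, and Bhlhe40, a basic helix-loop-helix repressor, had 0 and 723. In the anti-m6A libraries the same genes had 1717 and 1552, 14 and 8, 12 and 8, and 1 and 0 counts. All 4 were at 0 in both IgG libraries. Some markers of other cell types differed in the same direction in Input: Apoa1 had 195 and 3938 counts, Alb 114 and 1655 and Ttr 13 and 1374 (hepatocyte), and Emcn 0 and 511 (endothelium). The other endothelial markers were mixed, with Eng at 807 and 1490 counts. Pecam1 had 92 and 69, Kdr 88 and 56, Tek 168 and 110, and Egfl7 233 and 192. The endothelial list took 0.0195% and 0.0256% of counts in Input replicates 1 and 2. The hepatocyte list took 0.0166% and 0.217% of counts in Input replicates 1 and 2.

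Tcf7l2, a WNT effector, was the highest of the lineage factors listed in CPM without regard to length, at 3665 ± 167 CPM in anti-m6A, 830 ± 243 in IgG and 1316 ± 41.1 in Input (SD, n = 2 each). Per kb of exon in anti-m6A it stood at 404 and 431 CPM, below Cebpb at 663 and 608. It was 1 of 2 listed lineage factors besides Runx2 that had at least 10 counts in both IgG libraries, the other being Sp3 with 134 and 66.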
